A study of Mus musculus with 24 samples.

Results

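The lungs of wild-type mice that had drunk sildenafil were compared with those of wild-type mice given vehicle, across all measured genes. Members were chosen by array title alone: 4 arrays titled as wild-type with sildenafil (numbers 1, 4, 5 and 6) and 6 titled as wild-type with vehicle (numbers 13 to 18), 10 of the 24 samples of the series. Both groups were labelled wild-type, with no other agent named, and were killed at 6 months of age. Sildenafil was given in drinking water from 6 weeks of age until then. The protocol text reads the same for every sample, vehicle included, so that the treatment of each array rests on its title, and strain, sex, litter and dose are not given there. The study planned 6 mice per group, and 2 further wild-type sildenafil arrays, titled as failing quality control, carried no values. Lungs of mice with Marfan syndrome (5 with sildenafil, 5 with vehicle), an inherited disorder of connective tissue, enter where the same drug is set beside another genotype. Nothing states that each array is a separate animal, so that each p-value reflects only how far these samples spread, which may be technical.

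Sildenafil blocks phosphodiesterase 5, the enzyme that hydrolyses cyclic GMP in vascular smooth muscle. Nitric oxide made by endothelial cells stimulates soluble guanylate cyclase, cyclic GMP accumulates and activates protein kinase G, and the muscle relaxes. In the lung, where phosphodiesterase 5 is abundant, the drug widens pulmonary arteries and is used against pulmonary hypertension. Whole-lung RNA mixes endothelial, epithelial, muscle, matrix-producing and blood cells, so that in every result here fewer cells of a type and less RNA per cell cannot be told apart.

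The tissue label was borne out by its markers. Scgb1a1, the club cell secretory protein, was the brightest gene on each of the 10 arrays and therefore stood at 13.38 log2 units on all, a value that the normalization sets. Sftpc, surfactant protein C of alveolar type 2 cells, stood at 13.14, 13.01, 13.14 and 13.06 on the sildenafil arrays and from 13.08 to 13.21 (median 13.09) on the vehicle arrays. Ager, a marker of alveolar type 1 cells, stood at 12.36, 12.32, 12.07 and 12.14 with sildenafil and from 11.80 to 12.31 (median 12.16) with vehicle. These epithelial genes overlapped between the groups. Values throughout are log2 expression after quantile normalization, arrays are always given in the order 1, 4, 5 and 6, and each difference is sildenafil minus vehicle with its standard error from limma.

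No gene passed the limma test at an adjusted p of 0.05: 0 of 19494 genes were called, a share of 0%, and the lowest adjusted p was 0.267. Before adjustment 1775 genes had a p under 0.05, or 9.11% of those tested, of which 905 (4.64%) were higher and 870 (4.46%) lower with sildenafil, and every gene below is given as a value that did not pass the adjusted test. The median difference over all genes was -0.0019 log2 units, 365 genes differed by 0.5 or more and 15 by 1 or more. In 278 genes (1.43%) each sildenafil array stood above each vehicle array, and in 256 (1.31%) each stood below, 534 genes or 2.74% in all. The split of the unadjusted counts depended on the scaling: 5276 higher and 48 lower with the deposited values as they are, 366 higher and 2751 lower after centring each array on its median, where the median gene itself moved by 0.28 and -0.12. Differences that depend on those scalings are therefore given relative to the median gene, while counts under those scalings are not.

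The wild-type vehicle arrays were the dimmer ones as deposited. Earlier results of these data had shown this before the brightness test was chosen, so that its p-value describes a known difference and is no evidence of its own. Their medians over the transcript probe sets ran from 5.32 to 5.83 log2 units, dimmest on array 18, against 5.87 to 6.19 on the sildenafil arrays. The groups did not overlap, with a difference of 0.40 log2 units (exact permutation test, two-sided, p = 0.00952, the smallest the 210 assignments allow; 0.0476 adjusted over 5 array measures). The other 4 measures overlapped: background probe sets, separation of positive from negative control probe sets, hybridization controls and poly-A spikes gave exact permutation p-values of 0.695, 0.152, 0.562 and 0.619. Y-linked genes were near background on 1 of 4 sildenafil and 2 of 6 vehicle arrays. In wild-type lungs brightness and drug cannot be told apart.

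The genes with the smallest p-values among the higher ones carried secretory, cytoskeletal, lysosomal and signalling roles. Tram2, a membrane protein of the endoplasmic reticulum that assists collagen synthesis, stood at 8.00, 8.35, 8.19 and 8.37 with sildenafil and from 7.53 to 7.90 (median 7.70) with vehicle, a difference of 0.54 ± 0.11 (unadjusted p = 3.38e-05, adjusted p = 0.267). Stk10, a kinase of lymphocytes that acts on the cell cortex, stood at 8.53, 8.62, 8.75 and 8.54 against 7.98 to 8.25 (median 8.10), a difference of 0.51 ± 0.10. Sgsh, a lysosomal sulfatase that degrades heparan sulfate, stood at 8.08, 7.79, 7.82 and 7.89 against 6.71 to 7.64 (median 7.29), a difference of 0.65 ± 0.14. In all 3 the lowest sildenafil array lay above the highest vehicle array. Wasf2, which drives branching of actin filaments, differed by 0.41 ± 0.09, and Cyfip2, a member of the same WAVE complex, by 0.42 ± 0.10. Ahr, the aryl hydrocarbon receptor, differed by 0.48 ± 0.12. Spns2, the transporter that exports sphingosine 1-phosphate from endothelial cells, stood at 9.99, 9.93, 9.53 and 9.67 against 8.86 to 9.45 and differed by 0.53 ± 0.13. Creb3l2, a transcription factor held in the endoplasmic reticulum (0.55 ± 0.13), Armcx2 (0.61 ± 0.15), the ubiquitin ligase of the LDL receptor Mylip (0.39 ± 0.10), the membrane protein Ttyh3 (0.75 ± 0.19) and the spliceosome core protein Prpf8 (0.41 ± 0.10) made up the 12. All of these 12 genes separated the groups, which a choice by p favours.

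The 12 lower genes with the smallest p-values included small proteins of mitochondria, cilia, splicing and transcription. S100a13, a calcium-binding protein that takes part in the release of fibroblast growth factor 1, stood at 7.39, 7.29, 7.46 and 7.16 with sildenafil and from 7.64 to 8.17 (median 7.92) with vehicle, a difference of -0.56 ± 0.12 (unadjusted p = 0.000115, adjusted p = 0.267). Lsm3, part of the ring that binds U6 RNA in the spliceosome, stood at 7.17, 7.01, 7.03 and 6.86 against 7.29 to 7.76 (median 7.69), a difference of -0.60 ± 0.13. Rsph1, a radial spoke protein of motile cilia, stood at 5.99, 5.76, 6.02 and 6.20 against 6.45 to 6.69 (median 6.56), a difference of -0.58 ± 0.13. The sildenafil arrays lay below the vehicle arrays in each, without overlap. Chchd7, a small protein of the mitochondrial intermembrane space, differed by -0.60 ± 0.13, and Pam16, of the mitochondrial import motor, by -0.37 ± 0.09. Srp14, which belongs to the signal recognition particle, differed by -0.45 ± 0.11, Med21 of the Mediator complex by -0.45 ± 0.11, the transcriptional coactivator Sub1 by -0.34 ± 0.09 and the dynein light chain Dynll1 by -0.38 ± 0.10. Siva1 (-0.46 ± 0.10), Riiad1 (-0.54 ± 0.13) and Mien1 (-0.51 ± 0.12) completed the 12, all without overlap between the groups, which the choice by p again favours.

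**Figure D1:**
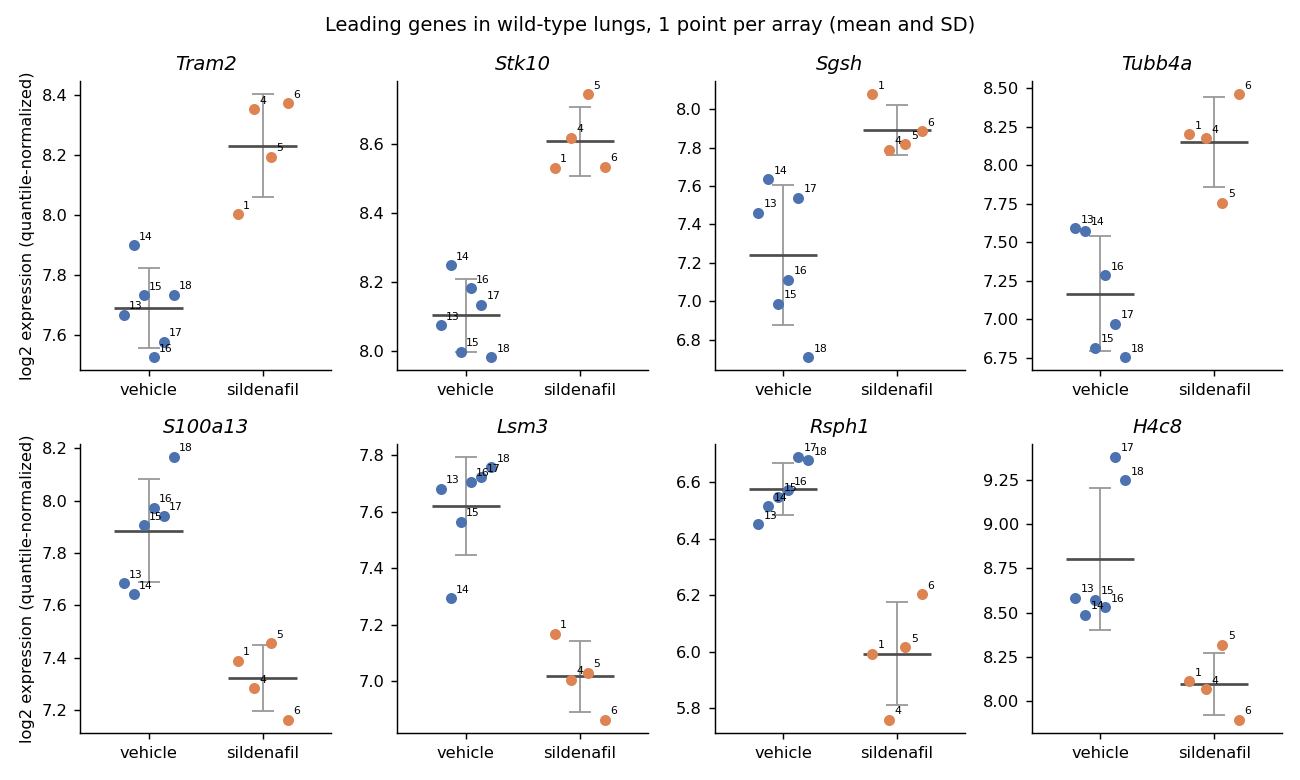
Log2 expression (quantile-normalized, vertical axis) of 4 higher and 4 lower genes on the 6 wild-type vehicle arrays (blue) and the 4 wild-type sildenafil arrays (orange), with array numbers, group means (line) and SD (bars). In each of the 8 genes the groups do not overlap, and Tubb4a has the widest gap between the means, 0.98 ± 0.27 log2 units.

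By size rather than by p-value, 12 of the brighter genes were taken from those that separated the groups, and 5 of them, Ttyh3, Lsm3, Chchd7, Rsph1 and S100a13, are described above. Tubb4a, a beta-tubulin best known from nervous tissue, stood at 8.20, 8.18, 7.76 and 8.46 with sildenafil and from 6.75 to 7.59 (median 7.13) with vehicle, a difference of 0.98 ± 0.27 or 1.98-fold. Scube2, a secreted protein that helps to release Hedgehog ligands, stood at 7.52, 7.94, 7.77 and 7.80 against 6.48 to 7.35 and differed by 0.85 ± 0.29. Chrdl1, a secreted antagonist of bone morphogenetic proteins, stood at 7.70, 7.78, 7.78 and 8.28 against 7.00 to 7.34 and differed by 0.68 ± 0.25. Array 6 was the highest in Tubb4a and Chrdl1. Tspan18, a tetraspanin, differed by 0.76 ± 0.24, but only by 0.08 with array brightness as a covariate, while Rtn1, a reticulon of the endoplasmic reticulum, differed by 0.72 ± 0.19 and 0.50. On the lower side H4c8, which encodes histone H4, stood at 8.12, 8.07, 8.32 and 7.90 against 8.49 to 9.38 (median 8.58), a difference of -0.70 ± 0.21. Vehicle arrays 17 and 18 were its highest. Angptl4, an inhibitor of lipoprotein lipase, stood at 7.22, 7.51, 7.44 and 6.88 against 7.68 to 8.11 and differed by -0.62 ± 0.18.

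The pathway that the drug acts on showed small differences. Of 31 measured genes of nitric oxide and cyclic GMP signalling, 2 (6.45%) were higher and 1 (3.23%) lower at an unadjusted p under 0.05. These were near the shares of 4.64% and 4.46% over all genes, and the median difference was 0.06. Counts of list members given as higher and lower are at this unadjusted threshold unless they add up to the whole list. Those at the threshold are read beside the same shares of all genes, 4.64% higher and 4.46% lower. Pde5a, the drug's target, stood at 9.93, 10.06, 9.87 and 10.02 with sildenafil and from 9.48 to 9.87 (median 9.62) with vehicle, a difference of 0.32 ± 0.19 (unadjusted p = 0.116). The highest vehicle array reached the lowest sildenafil array, and the difference came to 0.04 once array brightness was a covariate. Gucy1b1, the beta subunit of soluble guanylate cyclase, stood at 9.07, 9.52, 9.05 and 9.30 against 8.81 to 9.12, a difference of 0.25 ± 0.18. Prkg1, protein kinase G, differed by 0.04 ± 0.27 and Nos3, the endothelial nitric oxide synthase, by -0.17 ± 0.18, both with overlapping arrays. The 3 genes under the unadjusted threshold were Ddah1, Arg2 and Nos2. Ddah1, which clears the inhibitor of nitric oxide synthases asymmetric dimethylarginine, stood at 8.90, 8.57, 9.07 and 8.96 against 7.89 to 8.73, a difference of 0.42 ± 0.18 that came to -0.02 with brightness as a covariate. Arg2, an arginase that competes with the synthases for arginine, stood at 5.64, 5.80, 5.42 and 5.54 against 5.79 to 6.34, a difference of -0.53 ± 0.22. Nos2, the inducible synthase, was dim in both groups (4.56, 4.90, 4.43 and 4.60 against 3.04 to 4.68) and differed by 0.68 ± 0.30.

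Among 28 genes of the vasoactive peptide systems 3 were higher (10.7%) and 2 lower (7.14%), beside 4.64% and 4.46% of all genes. Ace, the angiotensin-converting enzyme that lung capillaries carry in abundance, stood at 10.82, 10.99, 11.03 and 10.94 against 10.22 to 10.80 (median 10.46) and differed by 0.46 ± 0.17. Ece1, which cleaves endothelin to its active form, stood at 9.16, 9.09, 9.17 and 9.01 against 8.36 to 9.15, differing by 0.42 ± 0.15. Aplnr, the apelin receptor, differed by 0.32 ± 0.12. In Ace and Aplnr all sildenafil arrays lay above the vehicle arrays, and in Ece1 vehicle array 17 reached them. Ramp1, a subunit of the receptor for the vasodilator CGRP, stood at 8.19, 8.21, 8.22 and 7.98 against 8.25 to 8.76 and differed by -0.35 ± 0.12.

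Vessel and mesenchymal genes leaned towards higher values with sildenafil. Of 34 endothelial markers 28 were higher and 6 lower, with a median of 0.19. At an unadjusted p under 0.05, 7 (20.6%) were higher and 0 lower, beside 4.64% and 4.46% of all genes. In 7 each sildenafil array stood above each vehicle array, as in 1.43% of all genes. Plvap, which forms the diaphragms of fenestrae and caveolae, stood at 10.51, 10.17, 10.71 and 10.56 against 9.51 to 10.26 (median 9.95), a difference of 0.57 ± 0.15. Cdh5, the cadherin of endothelial junctions, stood at 11.34, 11.40, 11.38 and 11.45 against 10.77 to 11.21 (median 10.91), a difference of 0.46 ± 0.19. Only array 4 overlapped in Plvap, and no array did in Cdh5. The endothelial transcription factor Erg differed by 0.40 ± 0.14, the guidance receptor Robo4 by 0.36 ± 0.15 and the clotting factor carrier Vwf by 0.47 ± 0.19. The mean of the 34 markers stood at 9.52, 9.53, 9.53 and 9.52 on the sildenafil arrays and from 9.25 to 9.48 on the vehicle arrays. With brightness as a covariate the median difference was -0.06 with 1 member under the threshold, and the part of brightness in this was not tested. That fit holds Marfan sildenafil array 9, whose list mean was 8.41 against 9.42 to 9.49 on the other Marfan sildenafil arrays. How far the value of -0.06 rests on array 9 was not tested. In the fit with no covariate the count went from 7 to 4 without sildenafil array 1, 5 or 6, and to 14 without Marfan sildenafil array 9. That array remained in the normalization.

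Neighbouring vascular lists gave smaller counts, read beside the 4.64% of all genes that were higher and the 4.46% that were lower. Of 26 genes of the VEGF, angiopoietin and Notch systems 3 were higher and 1 lower, led by the Notch ligand Dll4, which stood at 9.54, 9.49, 9.55 and 9.72 against 8.65 to 9.38 and differed by 0.45 ± 0.18, and its receptor Notch1, with 0.45 ± 0.18. Of 24 smooth muscle and pericyte genes 2 were higher (8.33%) and 0 lower. Pdgfrb, the receptor that recruits pericytes, stood at 8.38, 8.66, 8.41 and 8.62 against 7.69 to 8.17 (median 7.90), a difference of 0.59 ± 0.17 with no overlap. Rgs5, another pericyte gene, differed by 0.47 ± 0.22. The alveolar type 1 list, with 14 of 19 higher, had 0 members under the threshold in either direction.

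Matrix genes leaned towards higher values. Over 103 measured genes of elastic fibres, collagens, laminins, proteoglycans and related proteins, 81 were higher and 22 lower. At an unadjusted p under 0.05, 21 were higher and 0 lower, where 4.64% and 4.46% of all genes were. The median was 0.17. In Marfan lungs 48 of the 103 were lower, with a median of 0.03. Proteoglycans and matricellular proteins gave 10 of 35 (28.6%). Their median of 0.20 became 0.09 with brightness as a covariate, with 4 under the threshold. Sdc3, a syndecan that carries heparan sulfate, stood at 10.17, 9.82, 10.05 and 10.12 against 9.13 to 9.75 (median 9.58), a difference of 0.53 ± 0.14. Prelp, a leucine-rich proteoglycan that anchors basement membranes, stood at 10.68, 10.51, 10.68 and 10.78 against 9.25 to 10.50 (median 10.09), a difference of 0.65 ± 0.20. Bgn, biglycan, stood at 10.77, 10.71, 10.75 and 10.92 against 9.83 to 10.60 (median 10.48), a difference of 0.41 ± 0.13. The groups did not overlap in these 3, and vehicle array 18 was the lowest in each. Prelp and Bgn differed by 0.17 and 0.09 with brightness as a covariate, and Sdc3 by 0.53. Sparc, a collagen-binding protein, differed by 0.39 ± 0.14. Thbs1, thrombospondin 1, stood at 9.77, 10.36, 9.14 and 10.31 against 8.59 to 9.57 (median 8.94), a difference of 0.90 ± 0.30, with arrays 4 and 6 the highest and array 5 inside the vehicle range. Thbs1 is stored in platelets, whose other genes were highest on the same 2 arrays, as described below.

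Of 27 elastic fibre and microfibril genes 7 were higher and 0 lower. Their median of 0.23 became 0.06 with brightness as a covariate, with 4 under the threshold. Ltbp4, which binds latent TGF-beta and guides elastic fibre assembly, stood at 8.91, 8.69, 8.74 and 9.20 against 7.66 to 8.80 (median 8.11), a difference of 0.71 ± 0.21. Vehicle array 17 reached the range of the sildenafil arrays. Collagens gave 2 higher of 26 (7.69%) and 0 lower. Col6a2, a chain of the beaded-filament collagen VI, stood at 7.32, 7.38, 7.48 and 7.42 against 6.68 to 7.46, a difference of 0.45 ± 0.14. Npnt, nephronectin, an integrin ligand of the basement membrane, differed by 0.44 ± 0.22 without overlap. Integrins gave 5 higher and 0 lower of 18, with 17 of the 18 higher. The collagen receptor subunit Itga2 stood at 8.21, 8.19, 8.12 and 8.36 against 7.68 to 8.10 (median 7.83), a difference of 0.37 ± 0.11. The laminin receptor subunit Itga3 stood at 9.11, 9.04, 8.97 and 9.07 against 8.33 to 8.83, a difference of 0.44 ± 0.14. Both separated the groups, whereas the fibronectin receptor subunit Itga5 (0.50 ± 0.19) did not, with vehicle array 18 the highest of the 10.

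Signalling by TGF-beta and BMP gave 6 higher and 0 lower of 40. Tgfbr2, the type 2 receptor, stood at 9.90, 9.79, 9.95 and 9.98 against 9.52 to 9.77 (median 9.64) and differed by 0.27 ± 0.08. The ligand Tgfb2 stood at 7.53, 7.47, 7.38 and 7.57 against 6.48 to 7.49 and differed by 0.57 ± 0.17. The receptor separated the groups narrowly, and in the ligand vehicle array 14 lay within the sildenafil range. Among 33 matrix proteases and inhibitors 2 were higher (6.06%) and 1 lower (3.03%), near the shares over all genes. They were the inhibitor Timp2 (0.39 ± 0.12, no overlap), the membrane-bound collagenase Mmp14 (0.54 ± 0.23) and stromelysin 1, Mmp3 (-0.41 ± 0.17). Wnt and Hedgehog signalling gave 4 higher of 36 (11.1%) and 0 lower. They were the Wnt co-receptor Lrp5 (0.45 ± 0.15), the secreted Dkk3 (0.50 ± 0.17), the endothelial Frizzled receptor Fzd4 (0.36 ± 0.14) and the Hedgehog receptor Ptch1 (0.30 ± 0.13). Only Fzd4 among these 4 separated the groups. Of 43 lysosomal genes 6 were higher and 0 lower, and besides Sgsh they included Gaa, the lysosomal alpha-glucosidase (0.47 ± 0.14), the peptidase Tpp1 (0.43 ± 0.14) and the arylsulfatases Arsb (0.29 ± 0.10) and Arsa (0.31 ± 0.11).

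Subunits of the respiratory chain and of ribosomes mostly had lower values with sildenafil. Of 83 measured subunits of the respiratory chain and ATP synthase 77 were lower and 6 higher, with a median of -0.23, and 40 (48.2%) were lower and 0 higher at an unadjusted p under 0.05, where 4.46% of all genes were. Ndufb3, a small accessory subunit of complex I, stood at 7.67, 7.58, 7.77 and 7.65 against 7.83 to 8.21 (median 8.07), a difference of -0.37 ± 0.10 (unadjusted p = 0.00172). Ndufa5 and Ndufa2, of the same complex, differed by -0.40 ± 0.12 and -0.47 ± 0.14. Uqcrh, the hinge protein of complex III, stood at 10.52, 10.38, 10.58 and 10.31 against 10.62 to 11.06 (median 10.73), a difference of -0.33 ± 0.09. Each of these separated the groups. In complex IV, Cox7a2 (-0.47 ± 0.15) and Cox6c (-0.22 ± 0.08) overlapped. Atp5mpl, a small subunit of ATP synthase, stood at 9.90, 9.75, 9.91 and 9.62 against 10.06 to 10.63 (median 10.14), a difference of -0.43 ± 0.12, and Atp5j2 differed by -0.37 ± 0.11. Both separated the groups, with vehicle array 18 the highest. The matrix enzymes of the tricarboxylic acid cycle and fatty acid oxidation were mixed, with 17 of 27 lower, 10 higher and a median of -0.05, and 1 was lower and 0 higher at that threshold.

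Promoters of the respiratory genes were read for the NRF1 element GCGCATGC, the site of a factor known to drive respiratory chain genes, on both strands of the 250 bases before the start site. It was present in 9 of the 69 subunits with a promoter in the RefSeq table (13.0%) and in 692 of all 27025 genes there (2.56%). All 9 were lower with sildenafil in wild-type lungs, as were 77 of the 83 subunits. The windows of the 4 under the unadjusted threshold are shown because they carry the element next to a lower gene, in RefSeq's GRCm38.p6, 5′ to 3′ along the gene, with the element or its reverse complement in capitals.
Sdhb (chr4:140961177-140961264, plus strand): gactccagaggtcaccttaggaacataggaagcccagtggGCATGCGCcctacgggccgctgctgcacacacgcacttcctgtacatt
Cycs (chr6:50566582-50566669, minus strand): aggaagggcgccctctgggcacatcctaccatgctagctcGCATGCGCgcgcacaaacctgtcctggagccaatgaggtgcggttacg
Atp5k (chr5:108434402-108434489, minus strand): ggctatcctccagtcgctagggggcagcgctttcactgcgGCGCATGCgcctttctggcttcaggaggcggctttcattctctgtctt
Atp5l (chr9:44920935-44920992, minus strand): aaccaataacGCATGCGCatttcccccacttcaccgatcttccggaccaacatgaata
These genes encode the iron-sulfur subunit of complex II, cytochrome c, which carries electrons to complex IV, and 2 small subunits of ATP synthase. Sdhb stood at 9.07, 9.13, 9.08 and 8.84 against 9.13 to 9.73 and differed by -0.29 ± 0.11. Cycs stood at 9.44, 9.46, 9.40 and 9.31 against 9.50 to 9.90 and differed by -0.26 ± 0.10. Atp5k and Atp5l differed by -0.34 ± 0.14 and -0.37 ± 0.15. The groups were apart in Sdhb and Cycs and overlapped in Atp5k and Atp5l. The match is a description of the letters and not of binding.

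The same held for ribosomes and for other complexes of small subunits. All 59 measured cytosolic ribosomal proteins were lower, with differences from -0.48 to -0.06 and a median of -0.25, and 41 (69.5%) had an unadjusted p under 0.05, though only 7 separated the groups. Rpl7, of the large subunit, stood at 11.31, 11.14, 11.29 and 11.17 against 11.40 to 11.64 (median 11.46), a difference of -0.27 ± 0.08. Rps20, of the small subunit, stood at 10.92, 10.96, 10.88 and 10.79 against 10.99 to 11.49 (median 11.21), a difference of -0.34 ± 0.10. Rpl37 differed by -0.34 ± 0.10 with overlap. Ribosomal protein genes have many near-identical pseudogenes, and probes could read both. Of 76 mitochondrial ribosomal proteins 73 were lower and 21 passed the unadjusted threshold downward, led by Mrps14 (-0.43 ± 0.12). Of 28 Lsm and Sm proteins 26 were lower and 12 passed it, among them Snrnp27 (-0.41 ± 0.13) and Snrpd2 (-0.41 ± 0.13). Import and assembly factors of mitochondria gave 11 lower and 1 higher of 32, including Timm8b (-0.52 ± 0.16) and Tomm7 (-0.49 ± 0.14). Proteasome subunits gave 5 lower and 0 higher of 34, with Psma3 at -0.26 ± 0.10. Chaperones gave 4 lower, such as the mitochondrial pair Hspe1 (-0.47 ± 0.13) and Hspd1 (-0.26 ± 0.12) and the Hsp70 relative Hspa4l (-0.37 ± 0.12), and 1 higher, the co-chaperone Bag3 (0.40 ± 0.15).

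**Figure D2:**
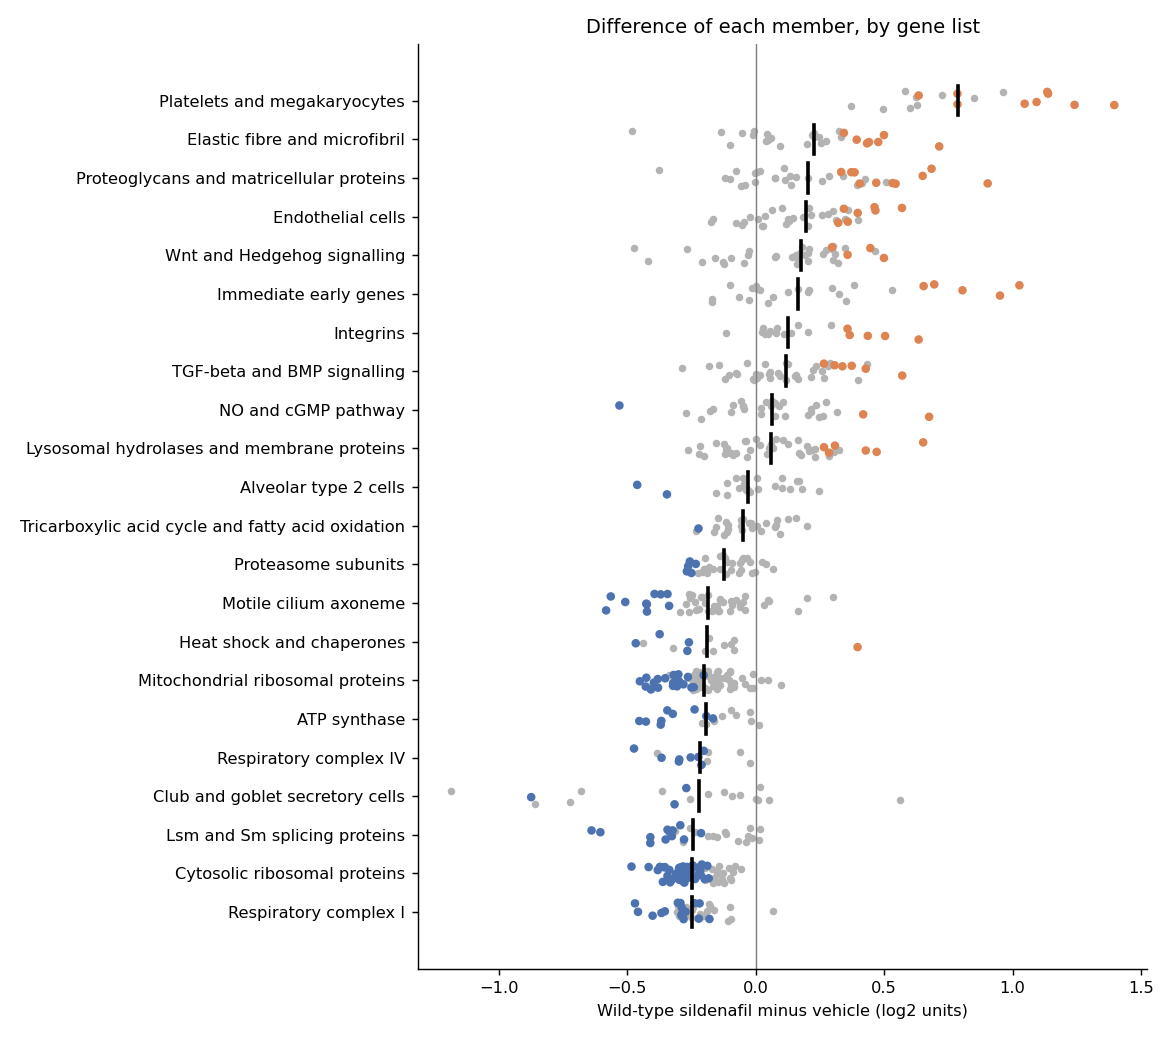
Difference of each measured member (sildenafil minus vehicle in wild-type lungs, log2 units, horizontal axis) for 22 gene lists (rows), with the list median as a black bar. Orange and blue points have an unadjusted limma p under 0.05, higher and lower, and none passes after adjustment. Cytosolic ribosomal proteins all lie below 0, and the platelet list, chosen after its values were seen, lies furthest to the right.

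Brightness differed between the 2 groups, and the order of the arrays within a group followed it only in part. On the sildenafil arrays the mean of the cytosolic ribosomal proteins stood at 10.87, 10.78, 10.80 and 10.59, and on the vehicle arrays from 10.79 to 11.27, highest on array 18, the dimmest array. For complex I the means were 8.73, 8.59, 8.66 and 8.46 against 8.67 to 9.11, array 18 again highest. Within the sildenafil group array 1, the brightest, had the highest means of both lists, and vehicle array 17, the second dimmest, had the second lowest vehicle means, 10.91 and 8.69. Other arrays followed brightness. Vehicle array 14, the brightest of its group (5.83), had the lowest vehicle means, 10.79 and 8.67. Sildenafil array 6, the second brightest of its group (6.12), had the lowest sildenafil means, 10.59 and 8.46. Without array 18 the number of cytosolic ribosomal proteins under the unadjusted threshold was 18, and without sildenafil array 6 it was 13. Without array 6 the count for complex I went from 16 to 10. With brightness as a covariate the medians were -0.13 for the ribosomal proteins, 1 of them under the threshold, and -0.16 for complex I, with 0. The part of brightness in these differences was not tested. In Marfan lungs the mean brightness of the 2 groups differed by 0.03 log2 units, with the dim sildenafil array 9 (5.73) included. The other Marfan sildenafil arrays ran from 5.92 to 6.45 and the Marfan vehicle arrays from 5.80 to 6.14. There sildenafil went with lower values in 59 of 59 cytosolic ribosomal proteins (median -0.18, or -0.19 without Marfan sildenafil array 9) and in 30 of 36 genes of complex I (median -0.12, or -0.18 without it). At an unadjusted p under 0.05, 17 and 1 of these were lower, where 3.43% of all genes were.

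**Figure D3:**
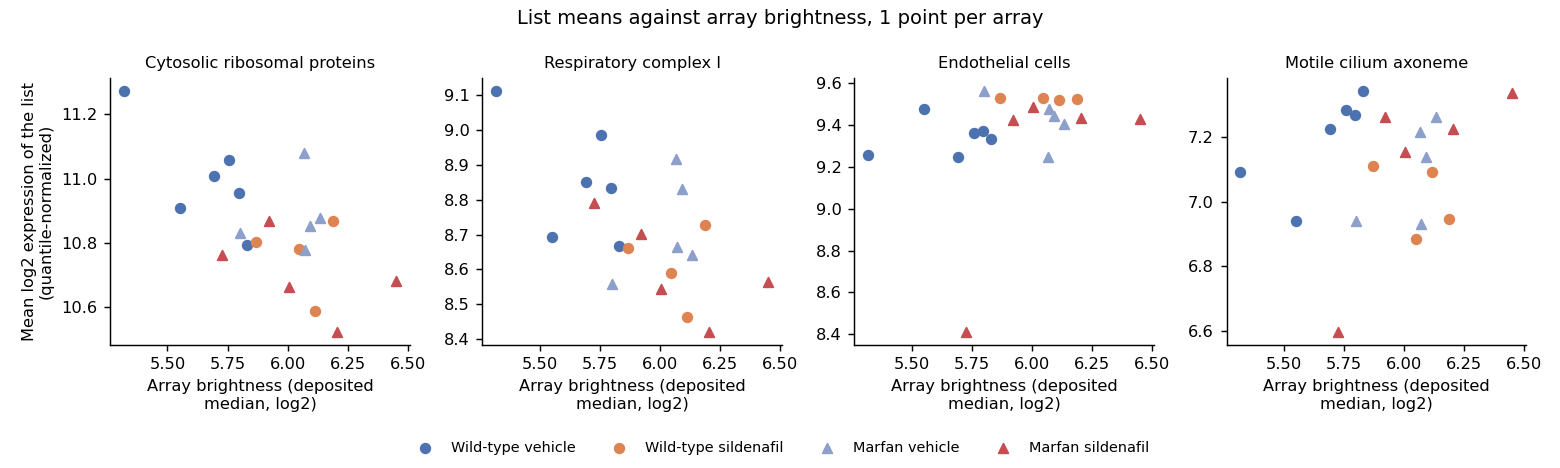
Mean log2 expression of 4 gene lists (vertical axes, quantile-normalized) against the deposited median of each array (horizontal axis, log2 units), 1 point for each of the 20 arrays. Wild-type vehicle arrays (blue circles) are dimmer than wild-type sildenafil arrays (orange circles), and the dimmest, at 5.32, has the highest ribosomal and complex I means; Marfan sildenafil array 9, at 5.73, is far below the rest in the endothelial and ciliary lists.

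Short genes leaned towards lower values more generally, though not in every list. When all 19494 genes were divided into 4 equal parts by their span in the genome, the median difference was -0.04, -0.01, 0.01 and 0.03 from the shortest part to the longest. In the shortest part, up to 6108 bases, 310 genes were lower and 115 higher at an unadjusted p under 0.05, and in the longest 111 were lower and 341 higher. The brighter genes alone were divided likewise. Their shortest part, up to 10830 bases, had 324 lower and 83 higher, and their longest 58 lower and 228 higher. By this second cut 58 of the 59 cytosolic ribosomal protein genes were short, as were 25 of 36 complex I genes but only 5 of 35 proteoglycan and matricellular genes. Other lists went the other way. By the same cut 18 of 25 immediate early genes were short, yet 19 of the 25 were higher. Only 6 of 48 motile cilium genes were short, yet 42 of the 48 were lower. By GC content of the 250 bases before the start site, known for 15683 genes, the medians of 4 equal parts were -0.03, -0.01, 0.00 and 0.02 from the lowest to the highest. The part of gene span in the list differences was not tested.

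Airway epithelium also showed lower values. Of 48 genes of the motile cilium 42 were lower and 6 higher, with a median of -0.18. At an unadjusted p under 0.05, 10 (20.8%) were lower and 0 higher, where 4.46% of all genes were lower. Beside Rsph1, Ccdc153 stood at 8.25, 8.18, 8.60 and 8.25 against 8.58 to 9.04 (median 8.84), a difference of -0.51 ± 0.16. Rsph9, another radial spoke protein, stood at 7.05, 7.13, 7.31 and 6.71 against 7.38 to 7.57, a difference of -0.43 ± 0.16 without overlap. Pifo, which acts at the base of cilia, differed by -0.56 ± 0.18. The list mean stood at 6.95, 6.89, 7.11 and 7.09 with sildenafil and from 6.94 to 7.35 with vehicle, so that the groups overlapped. With brightness as a covariate 29 of the 48 members were under the threshold and the median was -0.45, a larger value than without it. That fit too holds Marfan sildenafil array 9, whose list mean was 6.60 against 7.15 to 7.34 on the other Marfan sildenafil arrays. How far the value of -0.45 rests on array 9 was not tested. The RFX element GTTGCCAT, the site of factors that control ciliary genes, was found in 3 of 43 ciliary promoters (6.98%) and in 1.29% of all, and the 1 under the unadjusted threshold is shown with it in capitals (as its reverse complement).
Cfap161 (chr7:83794840-83794920, minus strand): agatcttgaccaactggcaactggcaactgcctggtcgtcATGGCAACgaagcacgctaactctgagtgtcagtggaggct
Cfap161, a protein of the ciliary axoneme, stood at 6.86, 7.15, 7.22 and 7.27 against 7.11 to 7.72 and differed by -0.37 ± 0.17.

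Secretory cells of the airway varied widely among the sildenafil arrays. Of 18 club and goblet cell genes 3 were lower and 0 higher. Hp, haptoglobin, stood at 11.42, 11.41, 11.53 and 11.32 against 11.62 to 11.75 (median 11.69), a difference of -0.27 ± 0.08 without overlap. Scgb3a1, a secretoglobin of the proximal airway, stood at 9.37, 8.41, 10.82 and 10.61 against 9.74 to 11.23 (median 10.80), a difference of -0.87 ± 0.36. Reg3g, an antibacterial lectin, stood at 5.75, 4.39, 8.91 and 7.91 against 7.08 to 8.59, a difference of -1.19 ± 0.59. In both, arrays 1 and 4 were low and arrays 5 and 6 within or above the vehicle range. Among 23 alveolar type 2 genes 2 were lower, the surfactant protein Sftpd (-0.35 ± 0.14, no overlap) and the calcium-binding S100g (-0.46 ± 0.16).

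Immediate early genes, which respond within minutes to growth factors, stretch or handling, were higher in part. Of 25 measured, 5 (20.0%) were higher and 0 lower at an unadjusted p under 0.05, where 4.64% of all genes were higher. Egr1 stood at 9.55, 9.70, 8.85 and 10.29 against 7.75 to 9.41 (median 8.55), a difference of 1.03 ± 0.37. Fos stood at 8.15, 8.45, 7.13 and 8.65 against 6.40 to 7.65 (median 7.32), a difference of 0.95 ± 0.39. In both, array 5 lay inside the vehicle range and the other 3 above it. Egr3, which is dim here, differed by 0.70 ± 0.20 without overlap, and Fosb and Nr4a1 differed by 0.81 ± 0.29 and 0.65 ± 0.28 with overlap. The count was 3 without sildenafil array 1, 4 or 6. The cAMP response element TGACGTCA lay before the start site of 3 of the 21 with a promoter (14.3%, against 1.77% of all), Btg2, Dusp1 and Maff, and the CArG box of serum response factor before 2 (9.52%, against 1.62%), Egr2 and Zfp36, none of which was under the unadjusted threshold.

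Platelet genes had the largest median difference of the cell type lists examined, 0.79 log2 units. A list of 18 measured genes of platelets and megakaryocytes was drawn up after these values had been seen, and all 18 were higher, by 0.37 to 1.40, so that its direction is no evidence of its own. Nrgn, a calmodulin-binding protein found in platelets, stood at 9.26, 10.32, 9.38 and 10.38 with sildenafil and from 7.70 to 9.62 (median 8.35) with vehicle, a difference of 1.40 ± 0.49 (unadjusted p = 0.00878, adjusted p = 0.42). P2ry12, the platelet receptor for ADP, stood at 7.43, 8.42, 7.40 and 8.77 against 6.42 to 7.79 (median 6.89), a difference of 1.05 ± 0.35. Ppbp, which encodes a chemokine stored in platelet granules, stood at 10.68, 11.45, 10.42 and 11.42 against 9.45 to 11.05 (median 10.22), a difference of 0.85 ± 0.44. In each, arrays 4 and 6 were the highest of the 10, and vehicle array 15 lay above sildenafil arrays 1 and 5. The collagen receptor Gp6 (1.24 ± 0.48), the platelet tubulin Tubb1 (1.14 ± 0.53), the lipoxygenase Alox12 (1.09 ± 0.44), the adhesion receptor subunits Gp9 (0.96 ± 0.47) and Itgb3 (0.63 ± 0.25) and the chemokine Pf4 (0.63 ± 0.38) differed in the same direction. The list mean stood at 7.84, 8.61, 7.59 and 8.55 on the sildenafil arrays and at 7.24, 6.89, 8.08, 6.71, 7.50 and 7.44 on vehicle arrays 13 to 18. With brightness as a covariate the list median was 0.46, and 1 member was under the unadjusted threshold instead of 9. A broader list of red cell and platelet genes, which shares members with it, gave 10 of 12 higher and 2 lower, with 2 higher at an unadjusted p under 0.05 and a median of 0.63. The mean of 4 red cell genes, also listed after values were seen and without Sptb, was 6.88 with sildenafil and 6.83 with vehicle. The dim gene Sptb, a spectrin of red cells and muscle, was higher on all 4 arrays, at 4.97, 5.66, 4.23 and 3.95 against 3.39 to 3.81, a difference of 1.08 ± 0.24. How much platelet-rich blood each lung held was not tested.

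**Figure D4:**
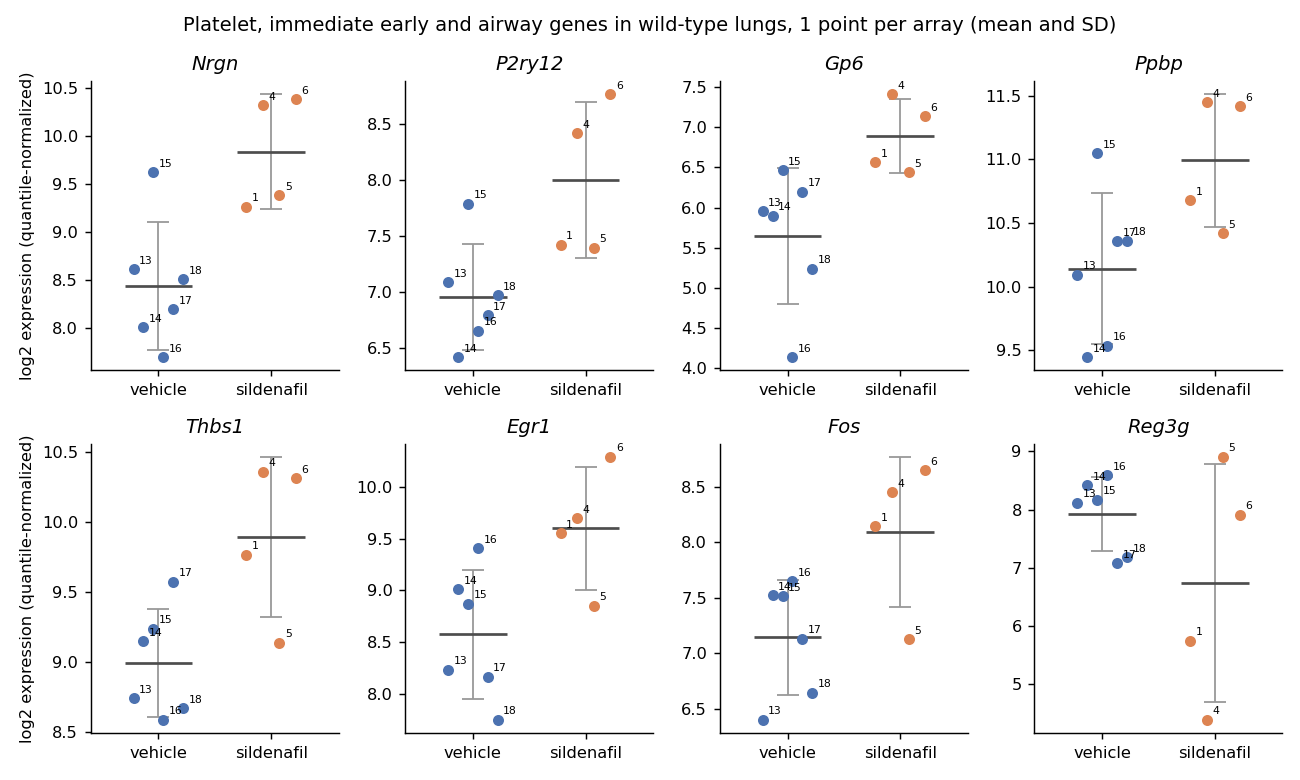
Log2 expression (quantile-normalized, vertical axis) of 4 platelet genes, Thbs1, 2 immediate early genes and Reg3g on the 6 wild-type vehicle arrays (blue) and 4 sildenafil arrays (orange), with array numbers, group means (line) and SD (bars). Arrays 4 and 6 are the highest in the platelet genes and Thbs1, vehicle array 15 is the highest vehicle array in the platelet genes, and Reg3g spreads from 4.39 to 8.91 within the sildenafil group.

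Immune cell lists gave few members in either direction, and their shares are read beside the 4.64% of all genes that were higher. T and NK cell genes gave 2 of 21 higher (9.52%), Cd3e (0.50 ± 0.18) and Il2rb (0.42 ± 0.18). Monocyte, interstitial macrophage and dendritic cell genes gave 3 of 24 higher (12.5%) with a list median of -0.02, of which Csf1r, the receptor for macrophage colony-stimulating factor, stood at 8.88, 8.93, 9.31 and 8.82 against 8.47 to 8.79 (median 8.62), a difference of 0.36 ± 0.11 without overlap. Its ligand Csf1 differed by 0.39 ± 0.15. Neutrophil genes gave 0 of 17 in either direction, with S100a8 at -0.56 ± 0.28, and alveolar macrophage genes 1 lower of 19. The endothelial chemokine Cx3cl1 stood at 7.64, 7.72, 7.52 and 7.58 against 7.02 to 7.44, a difference of 0.42 ± 0.11 without overlap, and Kit of mast cells and some endothelium differed by 0.50 ± 0.19. Sod3, the extracellular superoxide dismutase of vessel walls, stood at 11.31, 11.07, 10.91 and 11.28 against 9.96 to 10.90 (median 10.71), a difference of 0.54 ± 0.17 that came to 0.10 with brightness as a covariate. Nr1d1, a repressor of the circadian clock, differed by 0.49 ± 0.21 with overlap, 1 of 21 clock genes under the threshold. Cholesterol synthesis genes (19) gave 0 in either direction, as did cardiac muscle (21), skeletal muscle and thymus (17), mesothelial (11) and basal and neuroendocrine genes (13). Of the remaining lists, cytokines and NF-kappaB regulators gave 7 higher (15.9%) and 2 lower of 44, fibroblast genes 3 and 0 of 21, autophagy factors 3 and 1 of 33, antioxidant enzymes 2 and 1 of 26, and glycolysis and hypoxia genes 1 and 2 of 26. Laminins, nidogens and perlecan gave 2 and 0 of 15 within the matrix count above. Interferon-stimulated, cell cycle, B cell, mast cell, lymphatic and adipose genes each gave 1 higher and 0 lower, endoplasmic reticulum stress genes 0 higher and 1 lower, and the 3 Y-linked genes 0.

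The same drug in Marfan lungs gave partly like values. The 2 comparisons share no array, but all 20 arrays were normalized and fitted together, so that the Marfan arrays bear on the spread behind the wild-type p-values. Without Marfan sildenafil array 9 in the fit, 1169 genes were higher and 1006 lower in wild type at an unadjusted p under 0.05, instead of 905 and 870. There 1309 genes (6.71%) had an unadjusted p under 0.05 by limma, 640 (3.28%) higher and 669 (3.43%) lower, and 0 passed after adjustment. Of the 1775 wild-type genes 1262 (71.1%) had the same sign in Marfan lungs, beside 56.1% of all genes, and without Marfan sildenafil array 9, which stood apart, the shares were 75.4% and 58.2%. Genes are not independent of each other, and no p-value is given for these shares. The Marfan values of these genes had a median of 0.09 in the wild-type direction, against a median size without sign of 0.37 in wild type. The genes were chosen by their wild-type p, which favours large wild-type values, so that smaller values on other arrays follow from the choice. The 2 medians therefore do not compare the strength of the drug effect in the 2 genotypes. In all, 238 genes were under the unadjusted threshold in both genotypes and 209 of them had the same sign, 103 higher and 106 lower.

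H4c8 differed by -0.80 in Marfan lungs (-0.82 without array 9), close to its wild-type value. Fos and Egr1 differed by 1.12 and 0.84, Thbs1 by 0.61, Tubb4a by 0.40 (0.70 without array 9) and Ttyh3 by 0.48. Fos, Egr1, Thbs1, Tubb4a and Ttyh3 were thus higher in both genotypes, and H4c8 was lower in both. Others did not keep their wild-type difference: Rsph1 differed by 0.16, Angptl4 by 0.11 and Scgb3a1 by 0.41 in Marfan lungs, and Nrgn, at -0.01, hardly differed. These values include Marfan sildenafil array 9, and the Marfan values here are given without standard errors. Of 34 endothelial markers 28 were lower there, with a median of -0.21 that became 0.04 without array 9. The median of the 48 ciliary genes was 0.02 (0.16 without array 9), and that of the platelet list -0.02 (0.22 without). None of 19494 genes passed the limma test of the difference between the 2 drug effects (0 at an adjusted p under 0.05, 872 or 4.47% before adjustment, lowest adjusted p 0.984), so that no gene is shown to respond differently in the 2 genotypes.

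**Figure D5:**
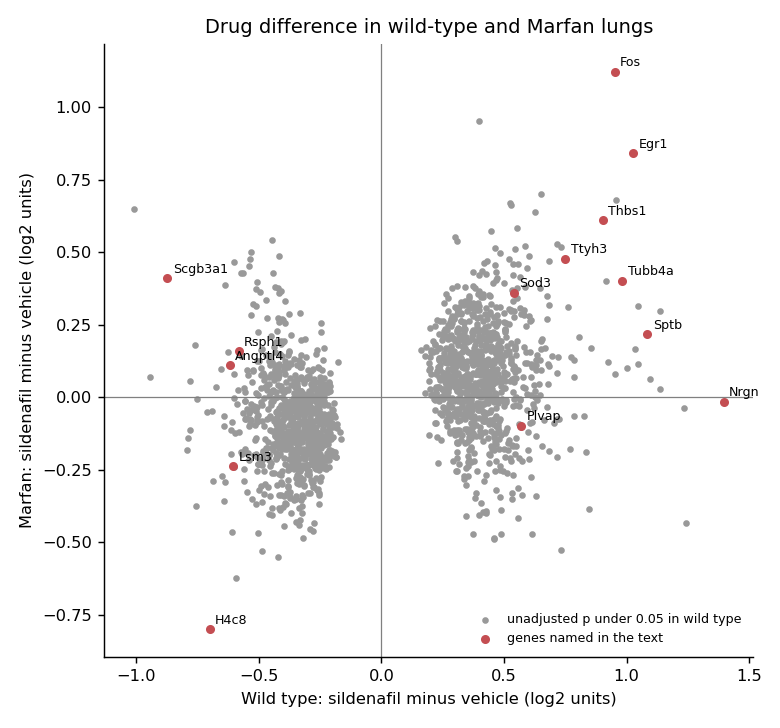
Sildenafil minus vehicle in Marfan lungs (vertical axis, log2 units) against the same difference in wild-type lungs (horizontal axis) for the 1775 genes with an unadjusted p under 0.05 in wild type, 14 of them named in red. The gap around 0 on the horizontal axis comes from that choice; 71.1% of the points lie in the upper right or lower left, among them H4c8, Fos and Egr1.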

How the data were processed

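Per the labels' protocols, lung RNA was extracted with QIAzol and RNeasy, RNA with an integrity number above 8.5 was kept, and cDNA from 700 pg was labelled with biotin (GeneChip Pico). The authors made the deposited log2 values with Affymetrix Expression Console and RMA, per the submitters' processing notes; their versions were not given in the sources used. The table has 29129 entries in 24 columns, of which 4 are empty. Of 22142 transcript probe sets 19527 have 1 gene symbol in the platform annotation and 2615 none; 6987 other entries were left out. The 20 arrays were quantile-normalized, and each of 19494 genes was represented by its brightest probe set. The 4 groups were fitted together (16 residual degrees of freedom) with limma 3.58.1 in R 4.3.3, with a variance trend, adjusted by Benjamini-Hochberg at 0.05. In data simulated for this comparison over 19494 genes, 32.8%, 82.1% and 98.5% of changes of 0.5, 1 and 2 log2 units were called. The simulated noise was normal and independent between genes, with no difference in brightness between arrays and no outlying array. These shares therefore need not hold for the real arrays. The number of arrays limits the precision (median SE 0.17).

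Named genes are, among the brighter 50% (predicted genes, odorant, pheromone and taste receptors, small RNAs and antigen receptor segments skipped), the 12 per direction with the smallest p and the 6 with the largest difference without overlap, and up to 5 members per list with the smallest p; Pde5a, Prkg1, Gucy1b1, Nos3, Fos, Egr1, Sftpc, Scgb1a1, Ager and Cdh5 were always named. Tubb1, Pf4, Cycs, Cfap161 and the platelet and red cell lists were picked with their values in view. The comparison, the 54 lists and the rule were chosen with earlier results of these data known. Promoters and gene spans are RefSeq's (GRCm38.p6).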

Additional observations from a re-analysis of the deposited data

Results flagged for a closer look

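In 274 groups of values examined (136 named genes and the array brightness, each in the 4 sildenafil and the 6 vehicle arrays), 18 had a highest or lowest array far from the others, and chance alone flags about 1 in 20, or 14. Vehicle array 18 was the far one in Rtn1 (5.07), Bgn (9.83), Mmp14 (6.17), Kit (8.42) and Sod3 (9.96), where it was the lowest, and in Ndufa2 (9.47), where it was the highest. The same array was the dimmest as deposited, at 5.32 log2 units; the part of brightness in these values was not tested. Vehicle array 17 was far in Siva1 (7.83) and Cd3e (7.36), as the lowest, and in Vwf (9.22) and Hspd1 (8.93), as the highest. Vehicle array 14 was the lowest in Sub1 (10.49) and vehicle array 16 in Arsa (5.98). Sildenafil array 6 was the highest in Chrdl1 (8.28) and Egr3 (5.20) and the lowest in Ramp1 (7.98) and Ndufa2 (8.17). Sildenafil array 5 was the lowest in Rgs5 (5.28) and sildenafil array 4 in Mrps14 (8.05).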

How the results depend on the processing

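No paired analysis was possible because the array numbers run on over the groups and share no number between sildenafil and vehicle. The count of genes past the adjusted threshold was 0 under each of 22 alternatives, with a lowest adjusted p between 0.0628 (deposited values) and 0.694 (brightness as a covariate). With the wild-type arrays fitted alone the unadjusted counts were 1194 higher and 1021 lower, and the lowest adjusted p was 0.0788. Of genes with an unadjusted p, the deposited values gave 5276 higher and 48 lower, median centring 366 and 2751, and array brightness as a covariate 488 higher; leaving out each wild-type array in turn gave 676 to 984 higher and 613 to 979 lower, lowest for both without sildenafil array 6. Genes without overlap numbered 1928 higher and 11 lower with the deposited values and 92 and 685 after centring. The unadjusted count for the difference between genotypes was 1738 with the deposited values and 1637 after centring, and the share of wild-type genes with the same sign in Marfan lungs was 75.4% without Marfan sildenafil array 9. Brightness differed by 0.33 to 0.46 with an array left out.

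Counts of members followed the scaling. With the deposited values cytosolic ribosomal proteins and complex I gave 0 lower, endothelial markers 17 higher and immediate early genes 14 higher. Centring gave complex I 25 lower and endothelial markers 3 higher. These counts are not relative to the median gene, which itself moved by 0.28 with the deposited values. Relative to it, the medians with the deposited values were -0.31 for ribosomal proteins, -0.22 for complex I, 0.20 for endothelial markers and 0.20 for immediate early genes. With brightness as a covariate the counts were 1 for ribosomal proteins, 0 for complex I and 1 for endothelial markers. Wild-type arrays alone, normalized together or alone, gave 16 endothelial and 10 immediate early genes; endothelial markers were 14 without Marfan array 9 and 13 with array weights, and immediate early genes 3 with robust eBayes or the brighter genes alone. With a wild-type array left out the ranges were 13 to 44 for ribosomal proteins, 10 to 23 for complex I, 4 to 9 for endothelial markers and 3 to 7 for immediate early genes. Of 136 named genes 4 changed sign, relative to the median gene. Ager came to -0.070 with the deposited values or centring and -0.13 with brightness as a covariate, which also gave Prkg1 -0.029, Gucy1b1 -0.020 and Ddah1 -0.024; with a wild-type array left out Prkg1 ranged from -0.13 to 0.19, and it was below 0 without sildenafil array 4 or 6 or vehicle array 15 or 18. The causes were not tested. Beyond these alternatives, 2 lost sildenafil arrays leave 4 against 6, and in the simulated data changes of 0.5 log2 units were mostly missed.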
